A study of Mus musculus with 10 samples.

Results

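The genes described here are 10 mouse genes whose products build or sit on the 2 accessory structures of the sperm tail, the outer dense fibres (*Odf1*, *Odf2* and *Odf4*) and the fibrous sheath (*Akap3*, *Akap4*, *Fsip1*, *Fsip2*, *Fscb*, *Cabyr* and *Ropn1*). They were taken by name from a matrix of 28125 genes measured by single-cell RNA sequencing (scRNA-seq) and a matrix of 30657 nuclear genes measured by single-cell ATAC sequencing (scATAC-seq), and all 10 were found in both. Both matrices hold 1 value per gene in each of 13 cell populations of the mouse testis. A scRNA level is the mean number of unique molecular identifiers (UMIs, each marking 1 captured RNA molecule) among 10000 UMIs of a cell, so it is a share of a cell's RNA and not an amount per cell. A scATAC level is the signal assigned to a gene among 1000000 units in its population, and it reads how open the DNA at that gene is to a transposase.

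Nuclei came from whole testes of C57BL/6J mice. The wild-type testes were taken at 11, 17 and 25 days postpartum (dpp), when the first wave of spermatogenesis is still under way. The adult testes were from 8-week-old *Cre/+* controls, which carry Cre with ZsGreen1 at the end of *Stra8* and therefore in germ cells before meiosis, undifferentiated spermatogonia included, and from 8-week-old *Nfya-CKO* mice, which carry the same Cre with a floxed *Nfya*. *Nfya* encodes the DNA-binding subunit of NF-Y, a factor that recognises CCAAT. Each of the 5 conditions was 1 library per assay, without replicates, so no difference below carries a test or an error between animals, and differences are described by a rule of 2-fold. The *Nfya* RNA level was not lower in spermatogonia of the *Nfya-CKO* library (1.11) than in undifferentiated (0.456) or differentiating spermatogonia (0.667), and deletion of a few exons need not lower a count over the gene. By Western blotting and staining of testis sections, the paper reports depletion of NFYA protein in germ cells of *Nfya-CKO* mice. The RNA level here does not show the deletion, so the spermatogonia of that library are called CKO-labelled SpG, after their label. The matrices label them as undifferentiated.

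The germ line was divided into 9 populations. Spermatogonia (SpG) were either undifferentiated (undiff. SpG) or differentiating (diff. SpG). Spermatocytes were preleptotene (pL), early leptotene to zygotene (eL/L/Z), leptotene to early pachytene (L/Z/eP), mid and late pachytene (mP/lP) or diplotene (D). Spermatids were round (RS) or elongating (ES). The other 4 were CKO-labelled SpG, Sertoli cells, other somatic cells and cells of unknown type. They held between 99 cells (unknown) and 8107 cells (L/Z/eP), with a median of 1525 to 18361 UMIs per cell. The cell table gives no library for 49 of the 45250 RNA cells, 10 of them RS and 2 ES. Libraries filled the populations unequally. The 3 juvenile libraries gave 99.7% of pL, 92.0% of undiff. SpG and 99.9% of Sertoli cells, while the *Cre/+* library gave 84.5% of diff. SpG, 77.0% of RS and 99.6% of ES. Where the main library changed, as from diff. SpG to pL, a step between populations was also a step between libraries, and the 2 cannot be told apart. Some neighbouring populations shared a main library. The 25 dpp library gave 93.5% of L/Z/eP and 70.7% of mP/lP, and the *Cre/+* library gave 52.9% of D and most of RS and ES. The shares of the libraries still differed at these steps. The marker genes of pachytene cells, round spermatids, elongating spermatids and Sertoli cells had their highest summed level in mP/lP, RS, ES and Sertoli cells, respectively. Those of differentiating spermatogonia were highest in pL (8.74) and not in diff. SpG (6.01).

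RNA libraries also shared cell barcodes. Of the 5152 barcodes of the library labelled *Nfya-CKO*, 3813 (74.0%) were also present in the *Cre/+* library and 11 in any wild-type library. The share was 78.3% for its other somatic cells and 35.6% for its spermatogonia, and the share of *Cre/+* cells with a barcode of that library was 93.0% for other somatic cells, 78.7% for mP/lP, 59.6% for ES, 57.2% for diff. SpG, 56.9% for undiff. SpG, 24.4% for D, 10.8% for RS and 1.42% for L/Z/eP. In the scATAC libraries 92 of 14920 barcodes were shared in this way. The deposited levels are means over a whole population, so none of the results below can be given without the shared barcodes, and their part in these results was not tested.

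The outer dense fibres run beside the axoneme along the midpiece and principal piece, and the fibrous sheath surrounds the principal piece with longitudinal columns and ribs. *Odf1* and *Odf2* encode major fibre proteins, and *Odf2* also serves in centrosomes and the base of cilia of many cell types. *Akap4* and *Akap3* encode the main sheath proteins, which anchor protein kinase A. *Fsip1*, *Fsip2* and *Fscb* encode proteins bound to the sheath, *Cabyr* a calcium-binding protein and *Ropn1* ropporin, which binds A-kinase anchoring proteins. The tail is assembled in spermatids, and many of its mRNAs are stored there before they are translated.

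In RefSeq (GRCm38.p6, the mm10 assembly) *Odf1* lies at chr15:38219203-38226735, *Odf2* at chr2:29889014-29931746 and *Odf4* at chr11:68921835-68927081. *Akap3* lies at chr6:126853098-126874308, *Akap4* at chrX:7067515-7078609, *Fsip1* at chr2:118130261-118256987, *Fsip2* at chr2:82943634-83008937, *Fscb* at chr12:64471333-64474898 and *Ropn1* at chr16:34649832-34678610. RefSeq promoter windows of the same build, each 300 bases long with 250 before the annotated start, were found for *Odf2*, *Odf4*, *Akap3*, *Akap4*, *Fsip2*, *Fscb* and *Ropn1*, with 11 starts in all. *Odf1*, *Fsip1* and *Cabyr* had no entry. The windows fell apart by the number of CG dinucleotides, of which the median window of all 32851 held 7. The windows of *Akap3* and *Fscb* held 0, those of *Akap4* 0 and 1, *Ropn1* 2 and *Odf4* 3, and 31.4% of all windows held 3 or fewer. The window of *Fsip2* held 14, and those of the 4 *Odf2* starts held 26 to 43, where 36.3% of all windows held 14 or more. The letters CCAAT, searched on both strands because NF-Y binds them, were present for 5 of the 7 genes, in 7 of 11 windows (63.6%) and in 37.4% of all windows. The 3 *Odf2* windows with CCAAT overlap and hold the same single box. TGANGTCA, searched on both strands after the sequences had been read, is the cyclic AMP response element with 1 base left free (N is any base). It was present in 4 of 11 windows, those of 4 of the 7 genes (*Akap3*, *Akap4*, *Fscb* and *Ropn1*) and in 8.83% of all windows. TGACG, which can overlap TGANGTCA, was present in 3 of 11 member windows and 20.8% of all, and TATAAA in 0 of 11 and 13.6%.

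The bases before the start are shown for the 4 genes with TGANGTCA and for the windows of *Fsip2* and the most upstream of the 4 *Odf2* starts, as examples rich in CG. They run 5′ to 3′ on the strand of the gene and end at the base before the start. None of these bases lies in an annotated exon, and capitals mark TGANGTCA and CCAAT or its reverse complement ATTGG. The bases shown for *Odf2* and *Ropn1* lie inside the spans given above for these genes, after the first base of the span.
Akap3, chr6:126852848-126853097, plus strand: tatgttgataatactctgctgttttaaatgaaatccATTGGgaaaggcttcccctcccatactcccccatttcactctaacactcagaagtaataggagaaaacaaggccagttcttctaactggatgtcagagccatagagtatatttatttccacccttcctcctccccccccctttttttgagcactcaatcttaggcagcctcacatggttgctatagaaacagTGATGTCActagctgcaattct
Akap4, chrX:7067265-7067514, plus strand: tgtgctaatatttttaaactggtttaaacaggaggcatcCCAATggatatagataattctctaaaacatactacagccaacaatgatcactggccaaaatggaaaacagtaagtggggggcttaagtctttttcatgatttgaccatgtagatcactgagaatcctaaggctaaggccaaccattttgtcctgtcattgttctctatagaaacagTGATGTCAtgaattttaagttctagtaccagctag
Fscb, chr12:64474899-64475148, minus strand: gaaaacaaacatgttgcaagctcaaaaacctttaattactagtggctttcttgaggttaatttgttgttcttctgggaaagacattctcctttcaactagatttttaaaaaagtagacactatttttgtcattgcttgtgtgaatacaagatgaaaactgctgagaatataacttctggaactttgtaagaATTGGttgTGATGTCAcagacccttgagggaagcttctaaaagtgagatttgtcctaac
Ropn1, chr16:34650961-34651210, plus strand: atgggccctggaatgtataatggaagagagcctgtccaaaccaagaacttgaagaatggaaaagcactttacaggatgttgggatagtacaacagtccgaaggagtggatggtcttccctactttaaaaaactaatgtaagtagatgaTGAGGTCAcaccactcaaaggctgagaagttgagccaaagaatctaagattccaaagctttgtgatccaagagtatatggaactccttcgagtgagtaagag
Fsip2, chr2:82943384-82943633, plus strand: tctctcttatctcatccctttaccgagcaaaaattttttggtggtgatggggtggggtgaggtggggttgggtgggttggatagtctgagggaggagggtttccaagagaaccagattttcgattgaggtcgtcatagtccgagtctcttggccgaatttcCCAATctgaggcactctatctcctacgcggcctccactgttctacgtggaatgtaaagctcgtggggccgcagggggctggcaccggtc
Odf2, chr2:29889470-29889719, plus strand: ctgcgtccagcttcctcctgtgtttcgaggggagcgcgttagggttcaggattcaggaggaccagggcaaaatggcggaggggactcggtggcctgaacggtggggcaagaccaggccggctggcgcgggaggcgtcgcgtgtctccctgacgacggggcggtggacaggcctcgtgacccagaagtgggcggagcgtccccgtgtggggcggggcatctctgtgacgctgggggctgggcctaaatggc
The windows of *Akap3* and *Akap4* share a run of 20 identical bases that ends in TGATGTCA, ctatagaaacagtgatgtca. It begins 34 bases before the *Akap3* start and 47 bases before the *Akap4* start, and no other of the 32851 windows holds it. In *Fscb* the ATTGG begins 59 bases before the start and TGATGTCA begins 51 bases before it. CCAAT begins 89 bases before the *Fsip2* start, whereas in *Akap3* and *Akap4* the box lies 214 and 211 bases before it. At the first *Odf2* start CCAAT lies 35 bases after the start and is outside the bases shown, as is most of a second TGATGTCA of *Akap3* that begins 1 base before the start. These matches are descriptions of letters in these windows.

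Across the germ cell populations, 9 of the 10 genes had their highest RNA level in spermatids. *Odf1*, *Odf2*, *Akap3*, *Akap4* and *Fscb* were highest in ES, *Fsip1*, *Fsip2*, *Cabyr* and *Ropn1* in RS, and *Odf4* in mP/lP. Of the 15250 genes with a mean level of at least 0.05, which include all 10 members, 33.1% were highest in RS or ES.

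**Figure D1:**
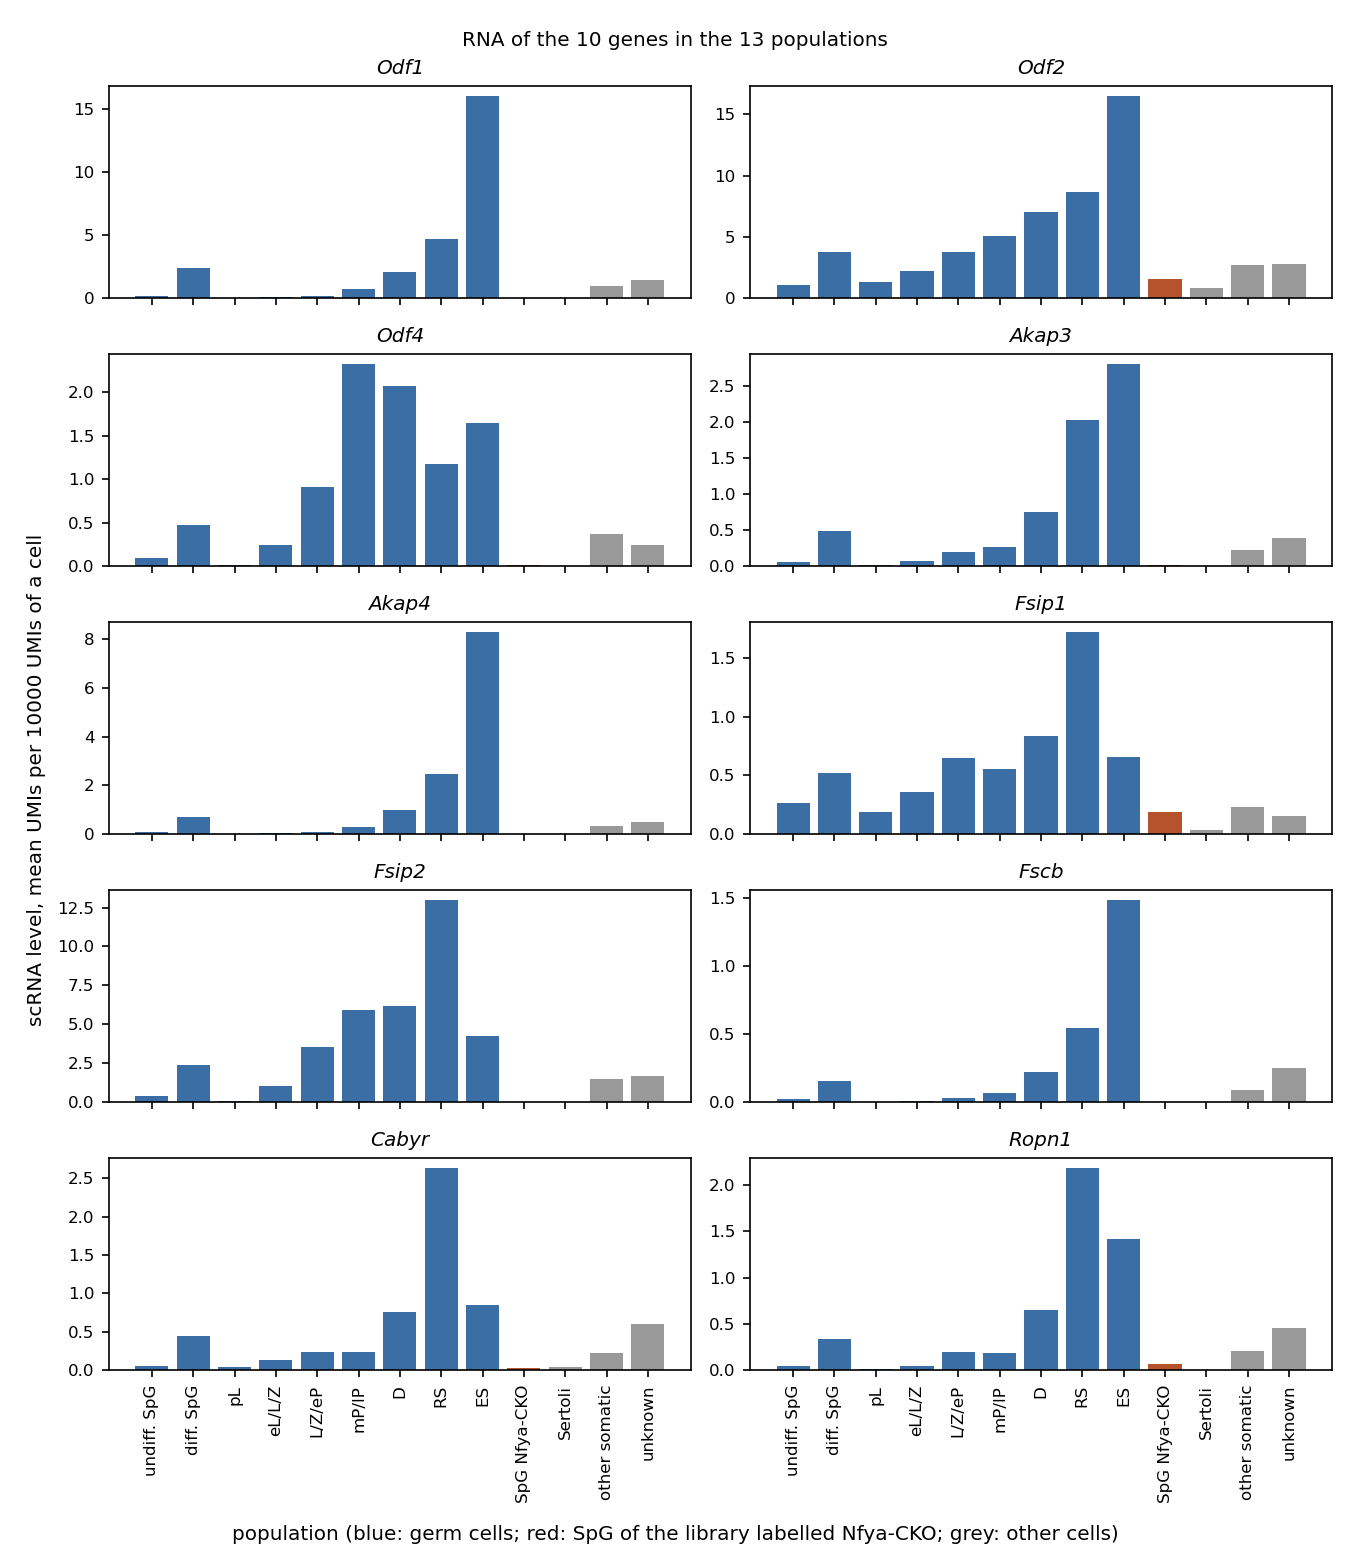
RNA level (mean UMIs per 10000 UMIs of a cell, vertical axis from 0) of each gene in the 13 populations, 1 bar per population and no replicates. The highest bar is at RS or ES for every gene but *Odf4*, and a separate low bar stands at diff. SpG, where *Odf1* reached 2.36.

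*Odf1* had the steepest late rise among the fibre genes. Its level was 0.149 in undiff. SpG, 2.36 in diff. SpG, 0.00944 in pL, 0.0502 in eL/L/Z and 0.148 in L/Z/eP. It then stood at 0.689 in mP/lP, 2.10 in D, 4.71 in RS and 16.0 in ES. It was 0.0408 in CKO-labelled SpG, 0.00399 in Sertoli cells, 0.956 in other somatic cells and 1.44 in cells of unknown type. From L/Z/eP onward it rose at every step, by 4.66-fold, 3.05-fold, 2.24-fold and 3.40-fold.

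*Odf2*, the fibre gene with a role outside sperm, was present everywhere. It stood at 1.06 in undiff. SpG, 3.80 in diff. SpG, 1.28 in pL, 2.20 in eL/L/Z, 3.79 in L/Z/eP, 5.07 in mP/lP, 7.06 in D, 8.70 in RS and 16.5 in ES. It was 1.54 in CKO-labelled SpG, 0.818 in Sertoli cells, 2.72 in other somatic cells and 2.77 in cells of unknown type. From pL to ES it rose 12.9-fold, and no single step from pL onward reached 2-fold.

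*Odf4*, which encodes a fibre protein found in spermatids and the sperm tail, peaked earliest. It was 0.0967 in undiff. SpG, 0.476 in diff. SpG, 0.0110 in pL, 0.240 in eL/L/Z and 0.904 in L/Z/eP. It reached 2.32 in mP/lP, and then stood at 2.06 in D, 1.17 in RS and 1.64 in ES. Its RS level was thus 0.505 times its mP/lP level, the reverse of the other 9 genes, which were 1.72 to 11.7 times higher in RS than in mP/lP. It was 0.0136 in CKO-labelled SpG, 0.00314 in Sertoli cells, 0.364 in other somatic cells and 0.244 in cells of unknown type.

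Among the sheath genes, the anchoring proteins *Akap4* and *Akap3* stayed under 3% of their ES level in pL and eL/L/Z and were highest in ES. *Akap4* was 0.0655 in undiff. SpG, 0.702 in diff. SpG, 0.00238 in pL, 0.0424 in eL/L/Z, 0.0921 in L/Z/eP, 0.271 in mP/lP, 0.981 in D, 2.47 in RS and 8.29 in ES. Its pL level lay next to 0.00209, the level that 3 UMIs in all would give over the pL cells at their median depth. *Akap3* was 0.0518 in undiff. SpG, 0.493 in diff. SpG, 0.0118 in pL, 0.0766 in eL/L/Z, 0.196 in L/Z/eP, 0.268 in mP/lP, 0.758 in D, 2.04 in RS and 2.81 in ES. Both were higher at each step from pL to ES, and in ES *Akap4* was 3.36-fold and *Akap3* 1.38-fold above RS.

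*Fscb*, whose product binds CABYR in the sheath, followed the same course. It was listed at 0 in pL and in CKO-labelled SpG, where 3 UMIs would give 0.00209 and 0.00333. It was 0.0664 in mP/lP, 0.224 in D, 0.543 in RS and 1.48 in ES, at least 710-fold higher in ES than the level of 3 UMIs in pL.

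The other 4 sheath genes were lower in ES than in RS. *Fsip2*, a large sheath scaffold gene, was 0.361 in undiff. SpG, 2.39 in diff. SpG, 0.0548 in pL, 1.01 in eL/L/Z, 3.56 in L/Z/eP, 5.94 in mP/lP, 6.16 in D, 12.98 in RS and 4.26 in ES. It was thus at 27.4% of its highest level by L/Z/eP, where *Akap3* was at 6.97% and *Akap4* at 1.11%. *Fsip1* was already at 0.266 in undiff. SpG and 0.190 in pL, and reached 0.646 in L/Z/eP, 0.836 in D, 1.72 in RS and 0.657 in ES.

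*Cabyr* and *Ropn1* rose late, between mP/lP and RS. *Cabyr* was 0.0464 in pL, 0.241 in L/Z/eP, 0.233 in mP/lP, 0.755 in D, 2.63 in RS and 0.851 in ES. *Ropn1* was 0.00696 in pL, 0.191 in L/Z/eP, 0.187 in mP/lP, 0.647 in D, 2.18 in RS and 1.41 in ES. From mP/lP to RS they rose 11.3-fold and 11.7-fold. The level in RS was 3.09 times that in ES for *Cabyr*, 3.04 times for *Fsip2*, 2.62 times for *Fsip1* and 1.54 times for *Ropn1*.

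The onset of each gene was taken as the population from which its level stayed at or above 10% of its highest germ cell level up to its peak. By this rule *Odf1*, *Akap3*, *Akap4*, *Fscb*, *Cabyr* and *Ropn1* began in D, *Fsip2* in L/Z/eP, *Odf2* and *Odf4* in eL/L/Z, and *Fsip1* in undiff. SpG. *Akap3* (9.54% of its peak in mP/lP), *Ropn1* (8.75% in L/Z/eP) and *Cabyr* (9.15% in L/Z/eP) lay just under the limit in spermatocytes. When the level was not required to stay, 8 genes first crossed 10% in diff. SpG, *Akap4* in D and *Fsip1* in undiff. SpG. The share of all genes by onset was not computed, so these counts describe the members and cannot be called particular to them. In diff. SpG *Akap4* was at 8.47% of its peak.

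Steps between neighbouring germ cell populations were compared as the log2 ratio of level + 0.1. No member was at least 2-fold lower at a step from pL to RS, against 0.59%, 3.97%, 3.54%, 0.184% and 3.34% of all genes at the 5 steps in turn. From L/Z/eP to mP/lP *Odf1* (1.67) and *Odf4* (1.27) were at least 2-fold higher, 2 of 10 genes against 1.38% of the 15250 genes. From mP/lP to D *Odf1* (1.48), *Akap3* (1.22), *Akap4* (1.54), *Cabyr* (1.36) and *Ropn1* (1.38) were at least 2-fold higher, 5 genes against 4.92%. From D to RS *Odf1*, *Akap3*, *Akap4*, *Fsip2*, *Cabyr* and *Ropn1* were, with ratios of 1.06 to 1.68, which made 6 genes against 10.6%. *Fscb* (0.99) and *Fsip1* (0.96) lay just under the limit and *Odf4* was at -0.77.

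From RS to ES the genes parted. *Odf1* (1.75), *Akap4* (1.71) and *Fscb* (1.30) were at least 2-fold higher, 3 genes against 10.1%, and *Fsip1* (-1.27), *Fsip2* (-1.58) and *Cabyr* (-1.52) at least 2-fold lower, 3 genes against 10%. ES also held more RNA of somatic markers. The Leydig cell markers *Insl3*, *Cyp17a1*, *Star* and *Cyp11a1* summed to 5.66 in ES and 0.778 in RS. Those of Sertoli cells summed to 4.55 and 0.775, and the part of such RNA in the ES levels was not tested. At the earlier steps *Odf4* (1.61) and *Fsip2* (2.84) were at least 2-fold higher in eL/L/Z than in pL (background 4.41%). *Odf4* (1.56), *Fsip2* (1.72) and *Ropn1* (1.07) were so in L/Z/eP against eL/L/Z (background 5.45%). The median log2 ratio of the 10 genes was 0.40 into mP/lP, 1.09 into D, 1.09 into RS and 0.45 into ES, beside medians of -0.10, 0.08, -0.17 and 0.13 over all genes tested. These counts depend on the pseudocount. With 1 in place of 0.1 no member reached 2-fold into D, and 1 did into RS. Shares of all genes for RNA were computed with 0.1 alone, so counts at another pseudocount have no background.

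**Figure D2:**
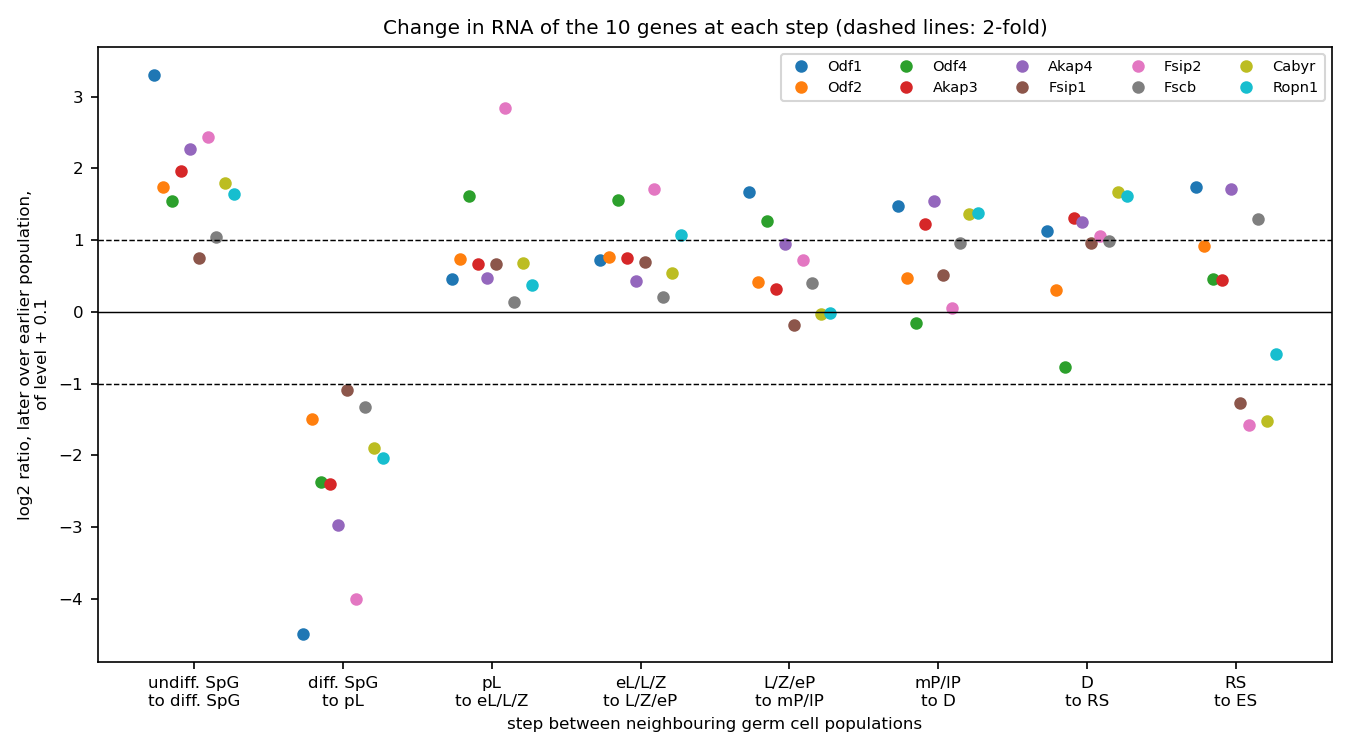
The log2 ratio of level + 0.1 between neighbouring germ cell populations (vertical axis), 1 point per gene at each of the 8 steps. The dashed lines mark 2-fold, and the RS to ES step separates *Odf1*, *Akap4* and *Fscb* above them from *Fsip1*, *Fsip2* and *Cabyr* below.

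Diff. SpG did not lie between undiff. SpG and pL. At that population 9 of the 10 genes, all but *Fsip1*, were at least 2-fold higher than in undiff. SpG (background 9.57%) and 0 lower (6.28%). From diff. SpG to pL all 10 were at least 2-fold lower (background 10.9%) and 0 higher (1.27%). With a pseudocount of 1 each of these counts, 9 and 10, became 3. The genes reached 15.6% (*Ropn1*) to 50.1% (*Odf1*) of their RS level in diff. SpG. Genes for the packaging proteins of spermatid chromatin and the acrosome moved with them, since *Prm1*, *Prm2*, *Tnp1*, *Tnp2* and *Acrv1* stood at 16.5% to 38.4% of their RS level there. *Prm1* was 0.155 in undiff. SpG, 3.94 in diff. SpG, 0.00525 in pL and 10.3 in RS. The pachytene markers *Piwil1*, *Hspa2*, *Ccna1* and *Ldhc* summed to 1.86 in undiff. SpG, 7.21 in diff. SpG, 0.889 in pL and 6.34 in other somatic cells. The part of RNA from spermatids or spermatocytes in the diff. SpG levels was not tested.

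The same held outside the germ line. In other somatic cells the 10 genes were at 8.48% to 31.3% of their RS level and the 5 spermatid markers at 8.44% to 18.3%, although 78.8% of these cells came from the library labelled *Nfya-CKO*, to which no RS or ES cell was assigned. In cells of unknown type the 10 genes were at 9.07% to 45.9% and the markers at 9.999% to 25.4%. Of Sertoli cells 87.8% came from the 11 dpp and 11.7% from the 17 dpp library, which also gave 59.3% and 38.2% of pL. No RS or ES cell was assigned to these libraries, so low levels in Sertoli cells and pL cannot be told apart from a lack of spermatids there. In Sertoli cells the markers were at 0.0193% to 0.0493%. *Odf2* was at 9.40% of its RS level there, *Fsip1* at 2.22%, *Cabyr* at 1.32%, and the other 7 genes at 0.0741% to 0.268%. *Odf2* and *Fsip1* were thus the members with the largest share of their RS level in Sertoli cells, and they were also present in pL (1.28 and 0.190) and in CKO-labelled SpG (1.54 and 0.191).

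The comparison of spermatogonia asked whether tail genes differed before meiosis where *Nfya* had been targeted. CKO-labelled SpG all came from 8-week-old testes, whereas 92.0% of undiff. SpG and 99.7% of pL were juvenile. The *Cre/+* library gave 7.89% of undiff. SpG and 84.5% of diff. SpG. Against undiff. SpG and pL, genotype label, age and library therefore cannot be told apart. All 10 genes were at least 2-fold lower in CKO-labelled SpG than in diff. SpG (background 10.5%) and 0 higher (6.86%), with log2 ratios from -4.53 (*Fsip2*) to -1.09 (*Fsip1*). With a pseudocount of 1 in place of 0.1 this held for 2 genes. The 5 spermatid markers were lower as well, from -5.11 (*Prm1*) to -3.17 (*Tnp1*), and their part in the members' ratios was not tested. Against undiff. SpG, 1 of 10 genes was at least 2-fold lower, *Fsip2* (background 3.08%), and 0 higher (4.09%). The pseudocount of 0.1 limits ratios of such low levels, and no other pseudocount was tried against undiff. SpG. Against pL 0 of 10 were lower or higher (backgrounds 4.73% and 9.05%).

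*Fsip2* was 0.361 in undiff. SpG, 2.39 in diff. SpG, 0.0548 in pL and 0.00732 in CKO-labelled SpG. In these spermatogonia it was below its Sertoli level (0.0263), as was *Cabyr* (0.0280 against 0.0348). Without a pseudocount its level in undiff. SpG was 49.3 times that in CKO-labelled SpG, and the same fold was 32.9 for *Tnp2*, 16.1 for *Acrv1*, 9.07 for *Prm1* and 1.17 for *Tnp1*. For *Prm2*, which was under the level of 3 UMIs in CKO-labelled SpG, it was at least 19.7. Other members were also lower by this fold, *Akap4* 10.8, *Odf4* 7.11, *Akap3* 4.98, *Odf1* 3.66, *Cabyr* 2.03 and *Fsip1* 1.40. For *Fscb*, listed at 0 in CKO-labelled SpG, it was at least 6.73. The log2 ratio of *Fsip2* with the pseudocount cannot be set against that of the markers, because their lower levels in undiff. SpG limit how far it can fall. *Ropn1* (0.0405 in undiff. SpG and 0.0693 in these spermatogonia) and *Odf2* (1.06 and 1.54) were the 2 members that were not lower. The 491 spermatogonia of this library also held RNA of Leydig cells, with a summed level of 49.0 for *Insl3*, *Cyp17a1*, *Star* and *Cyp11a1*, against 0.194 in undiff. SpG, 1.26 in diff. SpG and 217 in other somatic cells. The undifferentiated markers *Zbtb16*, *Gfra1*, *Id4* and *Etv5* summed to 6.75 there and to 11.3 in undiff. SpG. *Zbtb16* (4.15 against 8.74) and *Id4* (0.290 against 0.682) were lower, whereas *Gfra1* (1.20 against 1.08) and *Etv5* (1.11 against 0.760) were higher. The part of the Leydig RNA in the members' levels was not tested.

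**Figure D3:**
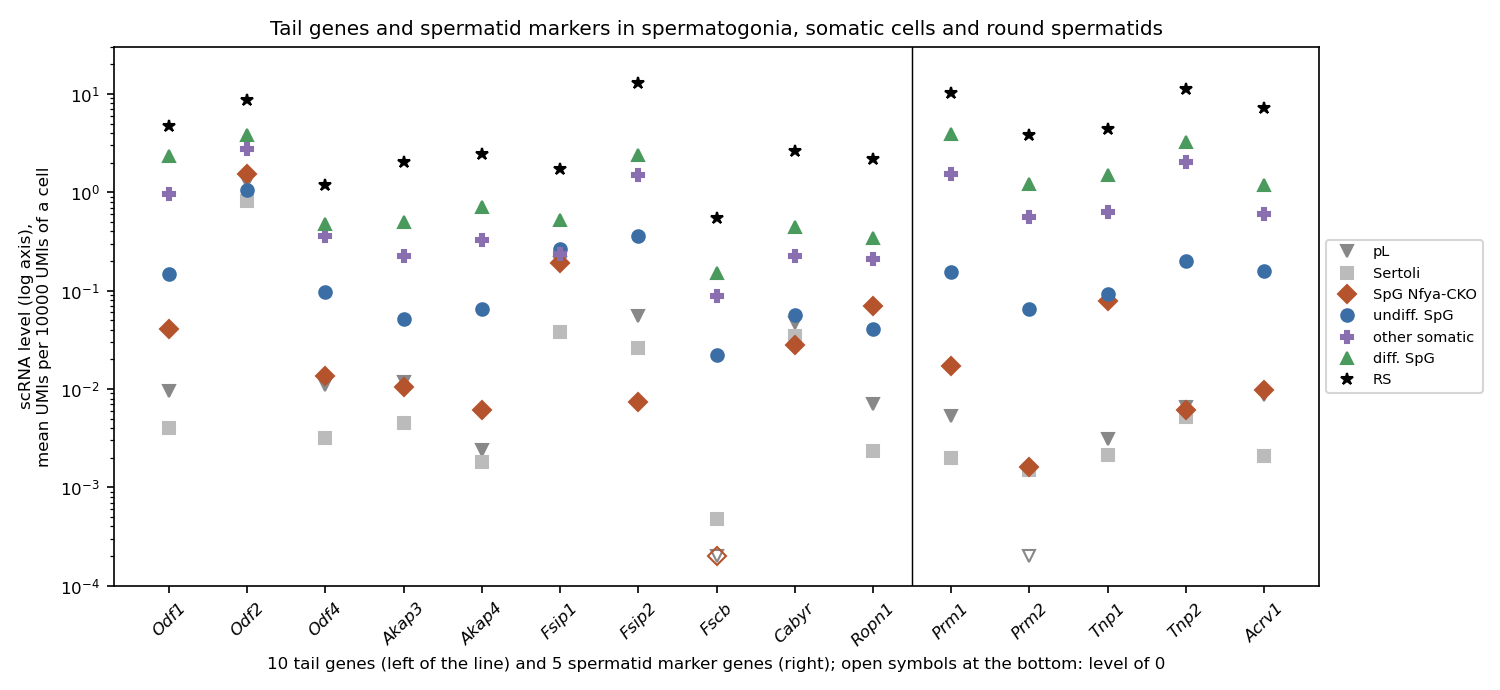
RNA level on a log axis (mean UMIs per 10000 UMIs of a cell) of the 10 tail genes and 5 spermatid markers in 7 populations, 1 symbol per population and open symbols for a level of 0. Green triangles (diff. SpG) lie at 15.6% to 50.1% of the black stars (RS) for tail genes and at 16.5% to 38.4% for markers, and purple crosses (other somatic cells) at 8.48% to 31.3% and 8.44% to 18.3%.

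The scATAC levels fell into 2 sets. *Odf2*, *Fsip1* and *Cabyr* were open in every population. *Odf2* was at 62.3 in undiff. SpG, 102 in diff. SpG, 96.2 in pL, 86.0 in eL/L/Z, 61.7 in L/Z/eP, 68.3 in mP/lP, 90.4 in D, 94.7 in RS and 99.5 in ES, and still at 56.7 in Sertoli cells. *Cabyr* was at 33.3 in undiff. SpG, 36.8 in pL, 18.7 in L/Z/eP, 45.3 in RS and 27.4 in Sertoli cells, and *Fsip1* at 26.8, 32.7, 20.2, 37.7 and 20.2. For *Cabyr* the highest germ cell scATAC level was 2.42 times the lowest, whereas its highest RNA level was 56.7 times the lowest.

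The other 7 genes were below 25% of their highest level in L/Z/eP and were highest in RS, or in ES for *Fscb*. *Cabyr* was also highest in RS, which made 7 of 10 genes where 19.6% of the 27495 genes with a mean scATAC level of at least 1 were. *Odf1* was at 1.74 in undiff. SpG, 7.41 in diff. SpG, 2.73 in pL, 2.43 in eL/L/Z, 4.01 in L/Z/eP, 7.10 in mP/lP, 18.4 in D, 47.1 in RS and 11.7 in ES. *Akap4* was at 1.28 in undiff. SpG, 3.16 in diff. SpG, 0.387 in pL, 1.73 in eL/L/Z, 2.12 in L/Z/eP, 5.34 in mP/lP, 8.76 in D, 27.1 in RS and 11.6 in ES. *Odf4* was at 3.49 in undiff. SpG, 6.16 in L/Z/eP, 14.6 in mP/lP, 28.4 in RS and 14.9 in ES, so its signal was higher in RS than in mP/lP where its RNA was lower. *Fsip2* was at 5.98 in undiff. SpG, 39.5 in RS and 24.9 in ES.

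All 7 were at least 2-fold higher in RS than in undiff. SpG, on ratios of level + 1, which 16.8% of these genes also were, and 0 of 10 were lower (11.9%). Against pL 7 genes were higher as well (background 17.1%) and 0 lower (10.2%). The mean enrichment of signal at start sites was 8.67 in RS, 12.7 in undiff. SpG and 14.8 in pL, and its part in these ratios was not tested. The ratio of level + 1 ranged from 5.80 (*Fsip2*) to 17.5 (*Odf1*). The plain fold ranged from 6.61 (*Fsip2*) to 29.1 (*Fscb*, over a level of 0.457), and it was 1.36 to 1.52 for *Odf2*, *Fsip1* and *Cabyr*. The scATAC signal was at least 2-fold higher for *Odf4* and *Akap4* from L/Z/eP to mP/lP (background 0.847%), for *Odf1*, *Akap3* and *Ropn1* from mP/lP to D (2.63%) and for *Odf1*, *Akap3*, *Akap4* and *Ropn1* from D to RS (5.15%). At these 3 steps 0 of 10 were lower, against 0.00364%, 0% and 0.0182% of all genes. From RS to ES *Odf1*, *Akap3*, *Akap4* and *Ropn1* were at least 2-fold lower in scATAC (background 17.5%) and 0 higher (6.29%), while the RNA of *Odf1* and *Akap4* was at least 2-fold higher in ES. The ES values rest on 124 cells with both assays. Mitochondrial genes held 31.2% (pL) to 64.5% (other somatic) of the scATAC signal, and 7 members were also called when the nuclear genes alone were scaled. In diff. SpG the scATAC level was at least 2-fold above undiff. SpG for *Odf1*, *Fscb* and *Ropn1* (background 3.67%) and lower by as much for 0 of 10 (4.5%). The median log2 ratio was 0.84 over the 10 genes and 0.12 over all genes. *Odf2* (102 against 94.7) and *Fsip1* (38.6 against 37.7) were higher in diff. SpG than in RS, and the other 8 genes were lower.

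**Figure D4:**
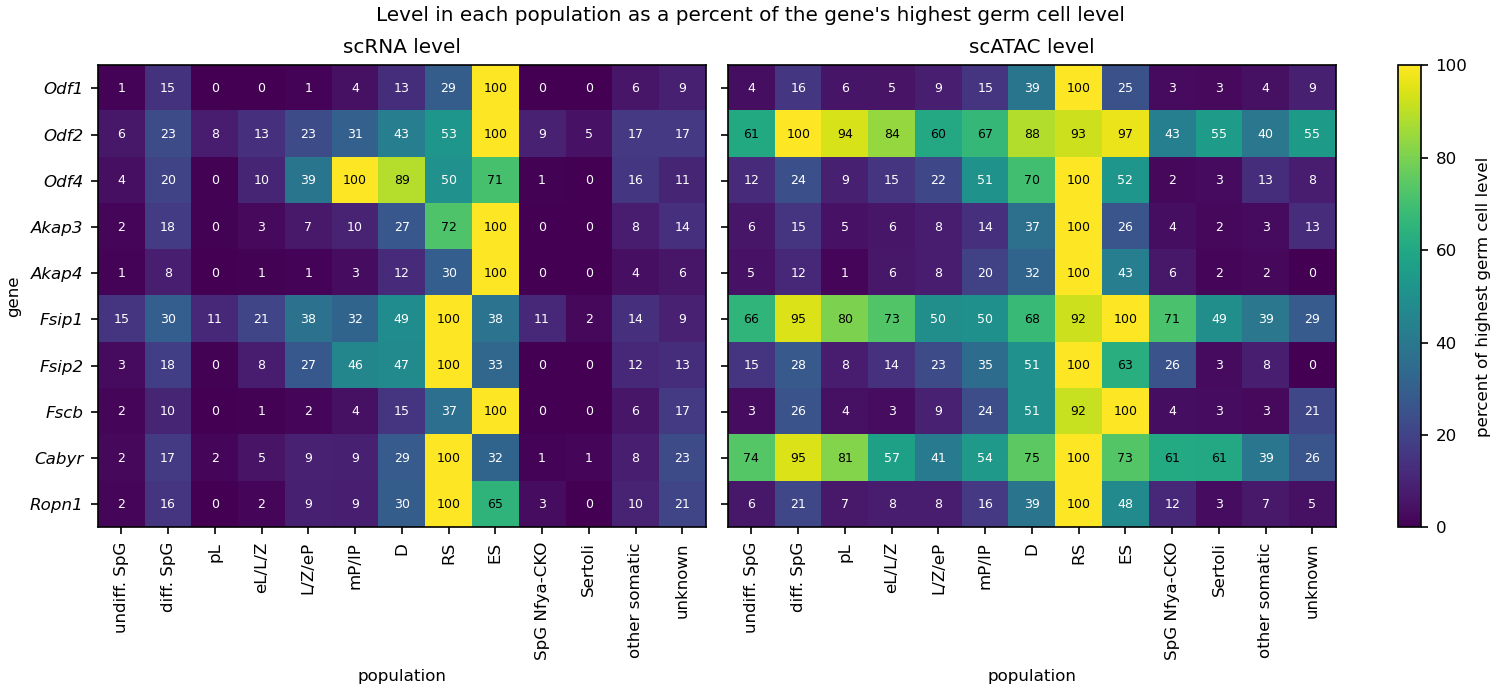
RNA (left) and scATAC level (right) in each population as a percent of the gene's highest germ cell level, 1 row per gene, with the percent printed in each cell. On the right *Odf2*, *Fsip1* and *Cabyr* stay at 41% or more in all 9 germ cell populations, and the other 7 genes are at 28.0% or less in all of them up to L/Z/eP.

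Promoter CG content was set beside the scATAC levels for the 7 genes with a window, of which *Odf2* alone belongs to the set open in every population. By the plain fold, the genes with 0 to 3 CG were 8.13-fold (*Odf4*) to 29.1-fold (*Fscb*) higher in scATAC in RS than in undiff. SpG. *Fsip2* with 14 CG was 6.61-fold higher and *Odf2* with 26 to 43 CG 1.52-fold. The 4 genes with TGANGTCA were 15.6-fold to 29.1-fold higher. By the ratio of level + 1 these were 12.3 for *Akap4*, 11.3 for *Akap3*, 10.3 for *Ropn1*, 9.81 for *Fscb*, 6.55 for *Odf4*, 5.80 for *Fsip2* and 1.51 for *Odf2*. These genes were few, and the study's methods define promoter accessibility over a short window around the start, without stating whether the scATAC matrix used here has that window.

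**Figure D5:**
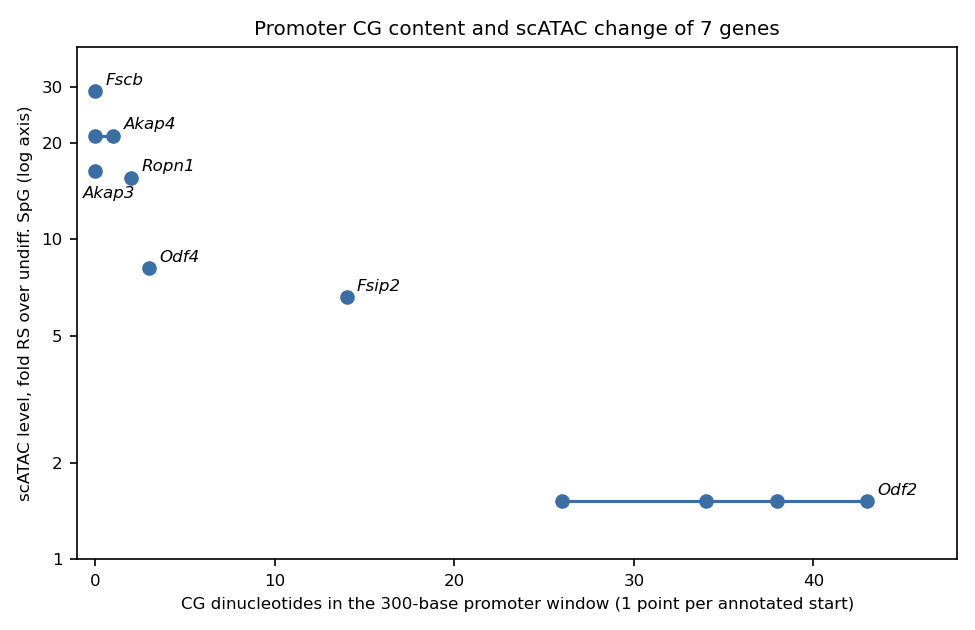
Plain fold, with no pseudocount, of scATAC level in RS over undiff. SpG (log axis) against the number of CG dinucleotides in the 300-base promoter window, 1 point per annotated start and a line joining the starts of 1 gene. *Odf2* (1.52-fold, 26 to 43 CG) stands apart at the lower right, and *Fscb* (29.1-fold, 0 CG) is highest here but below *Akap4*, *Akap3* and *Ropn1* on level + 1.

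In CKO-labelled SpG, the scATAC level was below that in undiff. SpG for 5 of 10 genes (*Odf1*, *Odf2*, *Odf4*, *Akap3* and *Cabyr*), and 52.6% of the 29939 genes with signal in both were below, with a median ratio of 0.981. The ratio of level + 1 ran from 0.370 (*Odf4*, 3.49 to 0.663) to 1.60 (*Fsip2*, 5.98 to 10.2). *Odf2*, with 1 CCAAT that 3 of its 4 windows share, was at 62.3 and 44.2, a ratio of 0.714. Of the 5 genes with CCAAT, *Odf2* and *Akap3* (0.745) were lower and *Fscb* (1.07), *Akap4* (1.19) and *Fsip2* were higher. *Akap3* (2.02 to 1.25), *Fscb* (0.457 to 0.557) and *Akap4* (1.28 to 1.71) had levels close to the pseudocount of 1. The paper's larger reduction in accessibility was at promoters where it measured NFYA binding. Binding at these genes was not examined here, so the letters do not sort them by it. By sign alone, RNA was lower and scATAC higher than in undiff. SpG for *Akap4*, *Fsip1*, *Fsip2* and *Fscb*, and the reverse for *Odf2*. None of these scATAC ratios reached 2-fold, and with the pseudocounts only the RNA of *Fsip2* did. The 470 cells behind these values had a mean enrichment of signal at start sites of 7.99, against 12.7 in undiff. SpG, and the part of this difference was not tested. Of the undiff. SpG cells with both assays 8.05% came from the *Cre/+* library and nearly all others from juvenile testes. Genotype label, age and library cannot be told apart in these scATAC ratios.

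Across the 13 populations, RNA and scATAC were set side by side as Pearson's r of log2(level + 0.1) and log2(level + 1). It was 0.91 for *Odf4* and *Fscb*, 0.87 for *Akap3*, 0.85 for *Ropn1*, 0.79 for *Odf1*, 0.74 for *Akap4*, 0.57 for *Fsip2*, 0.49 for *Odf2* and *Fsip1* and 0.17 for *Cabyr*. The RNA of the 10 genes correlated in pairs with r between 0.59 and 0.98 over 45 pairs, with a median of 0.86. The points share cells, libraries and any free RNA, and these values are descriptions.

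The 2 genes with the RNA pattern most like each member were named by r over the same 13 populations. *Odf1* was closest to the protamine genes *Prm1* (0.999) and *Prm2* (0.996), *Fscb* to *H2al2a* (0.997), a histone variant gene of spermatids, and *Gm28372* (0.996), and *Akap4* to *Znrf4* (0.998) and *AI507597* (0.998). *Akap3* was closest to *Prr30* (0.997) and *Pmfbp1* (0.996), *Ropn1* to *Wdr64* (0.995) and *Vwa3a* (0.993), and *Cabyr* to *Dusp13* (0.993) and *Txndc8* (0.993), a thioredoxin gene of spermatids. *Odf4* was closest to *Morn5* (0.993) and *1700028J19Rik* (0.993), *Odf2* to *Ttc39d* (0.991) and *1700003E16Rik* (0.981), *Fsip2* to *March10* (0.988) and *Slc6a21* (0.987), and *Fsip1* to *Ovgp1* (0.981) and *Ccdc150* (0.979). The number of genes with r above 0.95 ranged from 38 (*Fsip1*) to 353 (*Odf4*), so these pairs are 2 of many near equals. Of the 20 named genes, 9 were named again over the 9 germ cell populations and 2 by Spearman's rho over the 13.

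The partner list held 39 other genes of the sperm tail, among them enzymes of sperm energy supply, testis-specific kinases and subunits of protein kinase A, and all 39 were in the RNA matrix. From L/Z/eP to mP/lP 5 of 39 were at least 2-fold higher and 0 lower, and 10 were higher with a pseudocount of 0.01 and 0 with 1. The mean level was at least 0.05, as for the background, in 38 of the 39. The 3 highest ratios were those of *Irgc1* (1.21), *Oaz3* (1.17), the antizyme gene of spermatids, and *Ldhc* (1.10), the sperm lactate dehydrogenase. The 3 lowest were *Odf2l* (-0.26), *Tsga10* (-0.45) and *Prkar2a* (-0.76), a regulatory subunit of protein kinase A. The shares of all genes were 1.38% and 3.54%. From mP/lP to D 12 were at least 2-fold higher and 0 lower (4.92% and 0.184% of all genes). From D to RS 16 were higher and 1 lower (10.6% and 3.34%), the latter being *Spag5* (-1.02), a spindle gene named here after its value was seen. From RS to ES 13 were higher and 4 lower (10.1% and 10%). Of the 39, 20 were highest in ES, 10 in RS, 4 in mP/lP and the other 5 in D or earlier populations. Of the 15250 genes with a mean level of at least 0.05, 15.0% were highest in ES, 18.2% in RS and 11.3% in mP/lP. The median log2 ratio of the list was 0.38 into mP/lP, 0.53 into D, 0.83 into RS and 0.54 into ES.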

How the data were processed

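Nuclei of whole testes were profiled on the BD Rhapsody platform for RNA and accessible DNA from the same cells. Per the submitters' processing notes and the study's methods, the authors aligned scRNA reads to mm10 with STAR 2.7.10b, counted unique UMIs and filtered cells (at least 500 genes, under 5% mitochondrial) in Seurat 5.2.1. They aligned scATAC reads with BWA 0.7.12, shifted fragment ends with bedtools 2.27.1 and filtered cells (at least 1000 fragments, enrichment at start sites of at least 4) in ArchR 1.0.3. Doublets were removed by the authors before deposit. The deposited matrices hold, per gene and population, the natural log of 1 + the mean normalized level, and replicates do not exist. The deposited cell tables hold the UMI count and the fragment count of each cell, its enrichment at start sites as a ratio, its library and its population, and 22 other columns of these tables were not used.

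The natural log was undone and each column was found to sum to 10000. The RNA levels are means of per-cell shares and not sums of counts, so no count test was run. The scATAC columns were rescaled to 1000000, mitochondrial genes included in the total. RNA ratios used a pseudocount of 0.1 and scATAC ratios 1, with 2-fold as the limit, and backgrounds used genes with a mean RNA level of at least 0.05 or a mean scATAC level of at least 1. With 1 library per condition no test was possible. Totals were 30227701 to 64967271 UMIs per RNA library (46788005 in the library labelled *Nfya-CKO*), and 177596122 to 872964488 fragments per scATAC library. Levels of 3 UMIs were computed at each population's median depth and cover counting error only. Named genes were all 10 members, the 2 genes most like each, the 3 highest and 3 lowest partner genes, 5 spermatid markers and the cell type markers. The members, gene lists and comparisons were chosen with earlier results of these data known. The scripts were tested on simulated data. Python 3.11.15, numpy 2.4.6, pandas 2.3.3 and matplotlib 3.10.9 were used. Alternatives tried were other onset limits, pseudocounts, scalings, low-value filters, control populations and measures of likeness.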

Additional observations from a re-analysis of the deposited data

How the results depend on the processing

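Of 73 alternatives, 45 left the count within 1.5 times its value and 28 moved it. No paired analysis was possible because each condition was 1 library. No replicate was left out, since none exists.

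Onset in mP/lP or later held for 6 genes, for 3 with a limit of 5% and for 1 when the first crossing of 10% was taken. With a pseudocount of 1, 3 genes in place of 9 were at least 2-fold higher in diff. SpG than in undiff. SpG and 3 in place of 10 lower in pL than in diff. SpG. The genes at least 2-fold higher were 0 in place of 2 for eL/L/Z, 1 in place of 3 for L/Z/eP, 0 in place of 2 for mP/lP, 0 in place of 5 for D and 1 in place of 6 for RS, and 1 in place of 3 was lower in ES. With a pseudocount of 0.01 they were 8 for eL/L/Z, 5 for L/Z/eP and 4 for mP/lP. No share of all genes was computed at these other pseudocounts. The genes lower in CKO-labelled SpG were 10 against diff. SpG, 2 of them with a pseudocount of 1, 1 against undiff. SpG and 0 against pL. Partner genes higher in mP/lP were 5, 10 with a pseudocount of 0.01 and 0 with 1. Of the 20 most alike genes, 9 were named again over the 9 germ cell populations and 2 by Spearman's rho. Without the filter on low values, the share of all genes higher at a step was smaller at all 8 steps, for example 6.28% in place of 10.6% into RS and 0.747% in place of 1.38% into mP/lP. Scaling to an equal median gene shifted populations by -0.20 (diff. SpG) to 0.35 (Sertoli) on the log2 scale and kept each step count within 1.5 times.

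A level near that of 3 UMIs (0.000843 in Sertoli cells to 0.0640 in cells of unknown type) limits *Fscb*, *Akap4* and *Fsip2* before meiosis, and the 54 unknown and 124 ES cells limit their scATAC levels.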
